A study of Homo sapiens with 9 samples.

Results

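The outer short arm of human chromosome 1, here the 1p36 band, was described by its γH2AX regions. Members were the regions of the 8 deposited γH2AX lists on chromosome 1 whose midpoint lay between 1 and 28 Mb in the hg19 build. This rule used position only and no measured value. It held 9089 of the 234983 regions in all lists, or 3.87%, and from 366 to 1955 regions per library. The 26 windows of 1 Mb that could be tested in the band made up 1.34% of the 1935 tested on chromosomes 1 to 22 and X.

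The study examined FANCL loss, DNA repair and blood cell differentiation in K562, an established human line from a myelogenous leukaemia. The 4 groups were wild-type (WT) mock, WT treated with PMA (a phorbol ester that drives these cells to differentiate), FANCL knockout (KO) mock and FANCL KO treated with PMA. PMA was given at 5 nM, and treatments lasted 72 h. Each group had 2 γH2AX libraries, and the only input library came from WT mock cells. The labels do not say how many KO clones were used or whether the 2 libraries of a group came from separate cultures, so the p-values below reflect the variation of library pairs that may be technical repeats.

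γH2AX is histone H2AX phosphorylated by the kinases ATM, ATR and DNA-PK, and the mark spreads along chromatin away from a DNA break or a stalled replication fork. FANCL is the ubiquitin ligase that modifies FANCD2 and FANCI, the central step of the Fanconi anaemia pathway of crosslink repair. The 1p36 band is gene-rich and GC-rich, and it is recurrently deleted in tumours. Its genes include TP73, a p53 relative, CHD5, a chromatin remodeller, MTOR, a growth-control kinase, RUNX3, a transcription factor, and ARID1A, a subunit of SWI/SNF remodelling complexes. No gene was placed on the coordinates below, because no annotation of the hg19 build was used here.

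Depth ran from 15.6 to 27.2 M (mega) tags per library. The tag number that a 500-bp stretch had to reach was set per library, between 5.89 and 7.69 per 10 M tags, and was higher in each KO library than in any WT library. All lists were called against the WT mock input, so a difference in DNA copy number between KO and WT cells and a difference in γH2AX cannot be told apart in them.

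Coverage of the band by γH2AX regions was lowest in WT mock cells and highest in PMA-treated KO cells. The covered length was 208 and 239 kb in the WT mock libraries and 676 and 713 kb after PMA in WT. In KO cells it was 915 and 924 kb under mock and 2153 and 1735 kb after PMA. These lengths made up 0.77 and 0.884% of the 27 Mb in WT mock and 7.97 and 6.43% in KO PMA. The 4 groups did not overlap in this measure, and their means and SDs (n = 2 each) were 223 ± 21.7, 695 ± 26.1, 920 ± 6.29 and 1944 ± 295 kb.

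The covered length in KO was 4.13-fold that of WT under mock and 2.78-fold after PMA. PMA raised it 3.12-fold over mock in WT and 2.1-fold in KO, by group means on the log2 scale. Each comparison gave p = 0.33 in a two-sided exact permutation test, the smallest p that 2 libraries against 2 can give.

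The share of all called γH2AX that lay in the band differed by genotype. It was 2.16 and 2.92% of the covered length of chromosomes 1 to 22 and X in WT mock, and 2.16 and 2.88% in WT PMA. The KO mock libraries stood at 5.32 and 5.34% and the KO PMA libraries at 5.06 and 5.03%. All 4 KO libraries therefore lay above all 4 WT libraries, at 2.07-fold (two-sided exact permutation test within treatments, p = 0.056, the smallest that its 36 labellings allow). PMA against mock over both genotypes gave a log2 difference of -0.04 in the share (exact permutation p = 0.39), and the WT mock and WT PMA libraries overlapped.

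Within chromosome 1 the band held 13.8 and 21% of the covered length in WT mock and 13.3 and 17.8% in WT PMA. In KO cells it held 46.2 and 49.2% under mock and 43.2 and 42.4% after PMA. The KO and WT values did not overlap under either treatment (2.8-fold under mock and 2.78-fold after PMA, exact permutation p = 0.33 each). The rest of chromosome 1 held less of a library's covered length in KO than in WT. It held 13.5 and 11% in WT mock and 6.2 and 5.51% in KO mock. After PMA it held 14.1 and 13.3% in WT and 6.66 and 6.83% in KO. Its covered length after PMA was 4412 and 3286 kb in WT and 2832 and 2358 kb in KO. Under mock that length overlapped, at 1303 and 898 kb in WT and 1067 and 954 kb in KO. The 2.8- and 2.78-fold differences are therefore not those of the band alone. On the rest of chromosome 1 the numbers of regions in KO mock (1668 and 1485) and WT mock (2135 and 1508) overlapped, whereas in the band they did not (1265 and 1290 against 366 and 422).

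**Figure D1:**
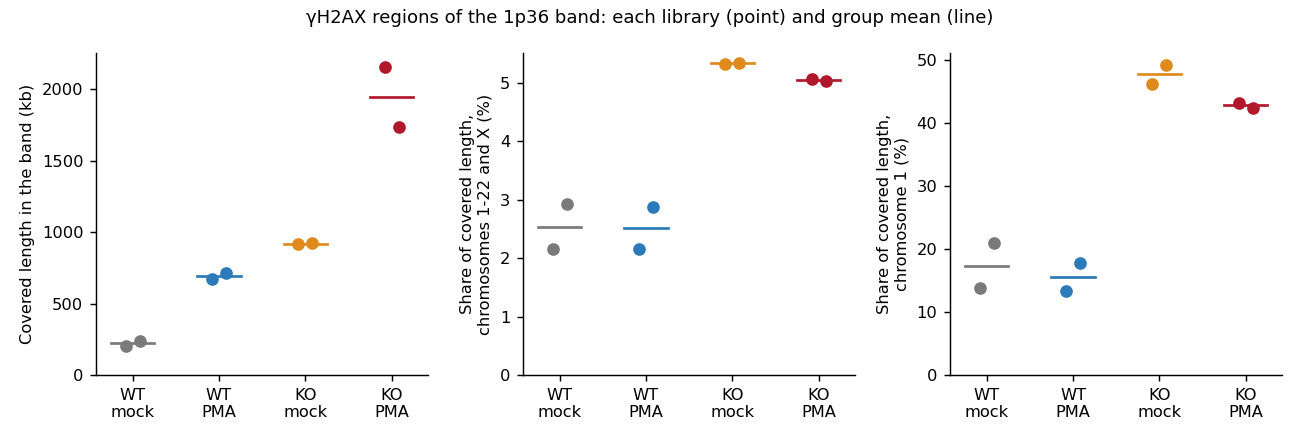
Covered length of the 1p36 band in kb (left), its share of the covered length of chromosomes 1 to 22 and X in percent (middle) and its share of that of chromosome 1 in percent (right). Points are libraries and lines are means of 2: covered length rises from 223 kb in WT mock to 1944 kb in KO PMA, while both shares separate the KO from the WT libraries.

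Regions of the band were widest in KO cells after PMA. The mean width was 568 and 565 bp in WT mock, 691 and 684 bp in WT PMA, 724 and 716 bp in KO mock, and 1101 and 980 bp in KO PMA. The median was 500 bp, the span of a single called stretch, in every library except KO PMA, where it was 647 and 636 bp. Regions wider than 500 bp made up 23.8 and 23.2% in WT mock and 57.7 and 55.1% in KO PMA. The mean width in KO PMA was 1.51-fold that in WT PMA and 1.44-fold that in KO mock (exact permutation p = 0.33 each, with no overlap). KO PMA regions were also the widest on the rest of chromosomes 1 to 22 and X. Mean widths there were 695 bp in WT mock, 713 bp in WT PMA, 713 bp in KO mock and 950 bp in KO PMA, and 30.1, 39.5, 38 and 48.7% of regions were wider than 500 bp.

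In the band, each of the 4 WT libraries and KO mock replicate 1 had 0 regions of at least 5 kb. KO mock replicate 2 had 2, and the KO PMA libraries had 38 and 23. Over chromosomes 1 to 22 and X the WT lists held such regions too, with 66 and 64 under mock and 82 and 42 after PMA. The KO lists there held 40 and 43 under mock and 665 and 393 after PMA. In KO PMA, 19 of 38 and 15 of 23 regions of the band lay between 27 and 28 Mb, and 10 and 6 lay between 1 and 2 Mb. Their median fold over input was 3.12 and 3.29, where fold is the authors' value per region.

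Single regions of the band had a lower fold over input in the KO than in the WT libraries, by the median of each library. The median fold over input was 4.66 and 4.51 in WT mock and 4.51 and 4.38 in WT PMA, whereas KO mock stood at 3.91 and 4.17 and KO PMA at 3.67 and 3.87. Regions of at least 6-fold made up 30.3 and 19.9% in WT mock and 10.5 and 12.9% in KO PMA. With these regions alone the covered length of the band was 135 and 118 kb in WT PMA and overlapped that of KO PMA, at 119 and 144 kb (log2 difference 0.05, exact permutation p = 0.67). Tags per kb of region, per 10 M tags, were 15.4 and 15.7 in WT mock and 19.3 and 19.9 in KO PMA. On the rest of chromosomes 1 to 22 and X their means were 15.9 in WT mock and 18.9 in KO PMA. The tag number that a 500-bp stretch had to reach was 6.26 and 6.42 in WT mock but 7.12 and 7.5 in KO PMA. The part of this threshold in the difference was not tested.

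Coverage was uneven along the band. Windows of 1 Mb are named here by their first megabase, so that window 27 is 27 to 28 Mb. Window 1 held 25.7 and 45.9 kb in WT mock, 72.3 and 97.6 kb in WT PMA, 124 and 145 kb in KO mock, and 289 and 221 kb in KO PMA. It had the highest group mean in WT mock, WT PMA and KO mock. Window 13 was nearly empty, with one region of 0.5 kb in KO mock replicate 1 and 0 in the other 7 libraries, and was not tested.

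Windows 4 and 18 were also low and held at most 1 kb in each of the 4 WT libraries. Over the 26 other windows the median of the group means was 6.75 kb in WT mock, 22.7 kb in WT PMA, 25.3 kb in KO mock and 47.7 kb in KO PMA. The window just outside on the telomeric side, at 0 to 1 Mb, held means of 48.7, 33.1, 47.3 and 72.5 kb in the same order, and the one past the other edge, at 28 to 29 Mb, held 14.4, 45.9, 27 and 164 kb.

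**Figure D2:**
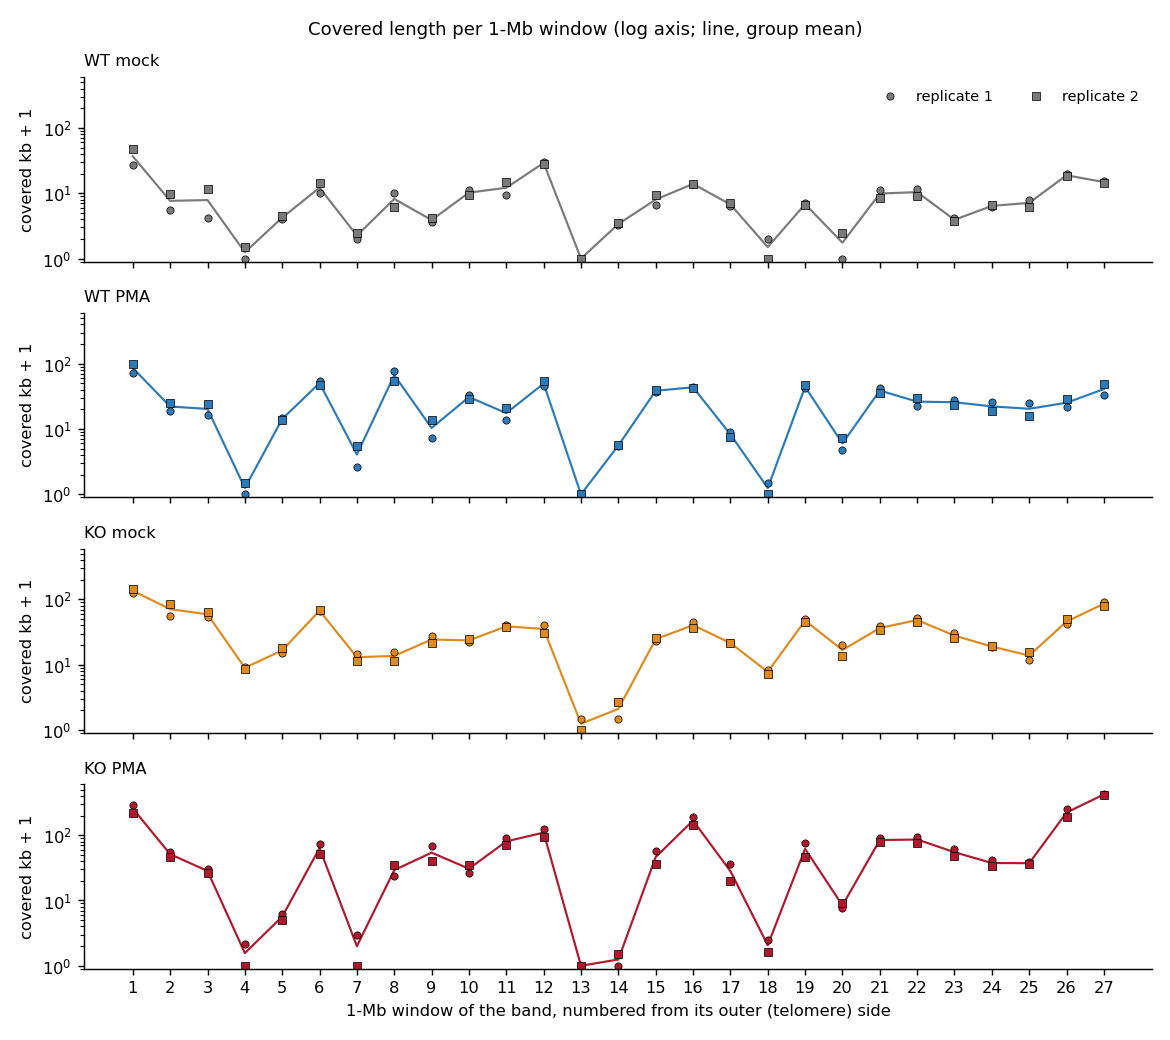
Covered length of each 1-Mb window plus 1 kb, on a log axis, for the 27 windows of the 1p36 band numbered from the telomere side, with a panel per group. Points and squares are the libraries and lines their mean: window 1 is high in all groups, window 13 is nearly empty, and window 27 reaches 431 and 408 kb in KO PMA.

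Under mock treatment, KO cells had more γH2AX coverage than WT cells in most of the band. Each window was tested with limma on log2(covered bp + 1000) together with all windows, with Benjamini-Hochberg adjustment and a threshold of 0.05, and fold changes are on that scale. In the band 23 of 26 windows were higher in KO mock, against 29.3% of all tested windows. None was lower, against 6.25% of all windows, and 0 were lower at an unadjusted p under 0.05. The median log2 difference was 1.95 in the band and 0.34 over all windows, and 25 of 26 band windows had both KO libraries above both WT libraries, against 42.9% of all windows.

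Windows 20, 2 and 3 had the largest differences. Window 20 held 0 and 1.5 kb in WT mock and 18.8 and 12.8 kb in KO mock (log2 difference 3.39, SE 0.51, limma adjusted p = 0.00392). Window 2 held 4.64 and 8.68 kb against 55.2 and 85 kb (3.24, SE 0.35, adjusted p = 0.00133). Window 3 held 3.13 and 10.6 kb against 52.4 and 63.8 kb (3.09, SE 0.5, adjusted p = 0.00499). In these 3 windows, chosen for the size of the difference, the lowest KO mock library exceeded the highest WT mock library, as in 25 of the 26 band windows.

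Windows 8, 12 and 14 did not pass the threshold in this comparison. Window 12 held 28.8 and 27.5 kb in WT mock, close to the 39 and 29.7 kb in KO mock (log2 difference 0.27, adjusted p = 0.397). Window 14 was the single window with a negative difference, at 2.27 and 2.5 kb in WT mock and 0.5 and 1.72 kb in KO mock. When 1 of the 4 libraries was left out in turn, 17 of the 23 windows kept their call in every case. The call on windows 7 and 25 ended without any one of the 4 (adjusted p from 0.0706 to 0.189). Without KO mock replicate 1 it also ended for windows 11, 17 and 18 (0.0541, 0.0586 and 0.0509), and without KO mock replicate 2 for windows 15 and 17 (0.0512 and 0.0543).

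Bins of 100 kb located these differences more finely. In the band 228 of 270 bins could be tested, and 24 held no region in any library. Of the 228, 103 were higher in KO mock, against 17.1% of all bins, and 4 were lower, against 3.62%. The largest difference was at chr1:27800001-27900000, with 0 and 0.5 kb in WT mock and 14.3 and 14 kb in KO mock (log2 difference 3.63, SE 0.45, limma adjusted p = 0.0055). The bin at chr1:2400001-2500000 held 0 kb in both WT mock libraries and 8.94 and 12.5 kb in KO mock. The bins at chr1:19600001-19700000, chr1:21900001-22000000 and chr1:22200001-22300000 rose from means of 0.75, 0.75 and 1.07 kb to 17.8, 13.5 and 14.7 kb. The call on the bin at 21.9 Mb ended without either KO mock library (adjusted p = 0.0669 and 0.0723).

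Of the 4 lower bins, chr1:12400001-12500000 held the most, at 5.71 and 3.64 kb in WT mock and 0.5 kb in each KO mock library (log2 difference -1.9, SE 0.33, limma adjusted p = 0.015). Its call ended without WT mock replicate 1 (adjusted p = 0.0768), KO mock replicate 1 (0.0759) or KO mock replicate 2 (0.0773). The bins at chr1:14900001-15000000 and chr1:15100001-15200000 held at most 1 kb in any library, and the call on the first ended without any one of the 4 (adjusted p from 0.0556 to 0.112). Fewer bins were called whichever of the 4 libraries was left out, both in the band and over all bins.

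After PMA, coverage in KO cells exceeded that in WT cells at the inner end of the band and in scattered windows further out. In this comparison 14 of 26 windows were higher in KO PMA, against 16.2% of all windows, and 3 were lower, against 38.8%. The median log2 difference was 0.84 in the band and -0.70 over all windows. Since the median of all windows lay below 0, the split depended on scaling: with each library centred on its median over all windows, 22 band windows were higher and 0 lower, against 40.7 and 12.7% of all windows. With one tag density threshold for all libraries it was 13 and 1, against 21.6 and 19.9% of all windows.

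Windows 27 and 26 differed most between the genotypes after PMA. Window 27 held 32.2 and 47.5 kb in the WT PMA libraries, compared with 431 and 408 kb in the KO PMA ones (log2 difference 3.39, SE 0.21, limma adjusted p = 0.000327). Window 26 held 21.1 and 27.4 kb in the WT PMA libraries, compared with 252 and 190 kb in the KO PMA ones (3.13, SE 0.21, adjusted p = 0.000445). Window 9 was the third, with 6.26 and 12.5 kb in WT PMA compared with 66.9 and 39.1 kb in KO PMA (2.4, SE 0.39, adjusted p = 0.00452). Windows 26 and 27 together held 31.8 and 34.5% of the band's covered length in KO PMA. The values were 14.4 and 13.9% in KO mock, 7.89 and 10.5% in WT PMA, and 15.7 and 12.8% in WT mock.

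Windows 14, 5 and 8 were the lower ones. Window 14 held 4.5 and 4.69 kb in the WT PMA libraries, compared with 0 and 0.5 kb in the KO PMA ones (log2 difference -2.19, SE 0.39, limma adjusted p = 0.00638). Window 5 held 13.6 and 12.9 kb in the WT PMA libraries, compared with 5.22 and 4.1 kb in the KO PMA ones (-1.34, SE 0.22, adjusted p = 0.00498). Window 8 held 77.6 and 54.1 kb in the WT PMA libraries, compared with 22.9 and 33.5 kb in the KO PMA ones (-1.19, SE 0.36, adjusted p = 0.0339), and its difference was 0.05 after centring. The calls on windows 2 and 8 ended without any one of the 4 libraries (adjusted p from 0.062 to 0.18). The call on window 25 ended without WT PMA replicate 2, KO PMA replicate 1 or KO PMA replicate 2 (0.128, 0.132 and 0.109), that on window 24 without the same libraries (0.0707, 0.121 and 0.0559), and that on window 1 without WT PMA replicate 1 (0.0744) or KO PMA replicate 1 (0.0526).

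Of the 23 windows higher in KO under mock, 13 were also higher in KO after PMA, 9 did not pass the threshold and 1, window 5, was lower. These comparisons use different libraries. Window 12 was higher after PMA only, and windows 8 and 14 were lower after PMA only. By 100-kb bins, 64 of 228 were higher in KO PMA, against 15.9% of all bins, and 12 were lower, against 21.8%. After centring the split was 83 higher and 1 lower, against 22.1 and 13.2% of all bins.

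The bin chr1:27300001-27400000 held 0.5 and 1 kb in WT PMA compared with 32.9 and 27.1 kb in KO PMA (log2 difference 4.16, SE 0.29, limma adjusted p = 0.000708). The bins at chr1:26600001-26700000, chr1:16300001-16400000, chr1:11700001-11800000 and chr1:21900001-22000000 had means of 1.15, 1.14, 1.4 and 2.69 kb in WT PMA, compared with 33.8, 21.7, 23.3 and 35.4 kb in KO PMA. The call on the bin at 26.6 Mb ended without WT PMA replicate 1 (adjusted p = 0.0716) or KO PMA replicate 1 (0.0659). Among lower bins, chr1:5900001-6000000 held 13.6 and 12.9 kb in WT PMA compared with 5.22 and 4.1 kb in KO PMA (-1.34, SE 0.21, limma adjusted p = 0.00782).

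The other 4 named lower bins were chr1:21200001-21300000, chr1:12400001-12500000, chr1:8400001-8500000 and chr1:14600001-14700000. Their means were 6.54, 11.9, 15.7 and 1.1 kb in WT PMA, compared with 0.5, 4.34, 6.18 and 0 kb in KO PMA. All 4 calls ended without KO PMA replicate 1 (limma adjusted p = 0.117, 0.137, 0.0969 and 0.144). Leaving out WT PMA replicate 1 ended those at 21.2, 12.4 and 14.6 Mb (0.144, 0.143 and 0.177), leaving out WT PMA replicate 2 those at 21.2 and 8.4 Mb (0.0961 and 0.0612), and leaving out KO PMA replicate 2 those at 21.2, 8.4 and 14.6 Mb (0.113, 0.0986 and 0.14). When any 1 library of the compared groups was left out, fewer bins were called, both in the band and over all bins.

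**Figure D3:**
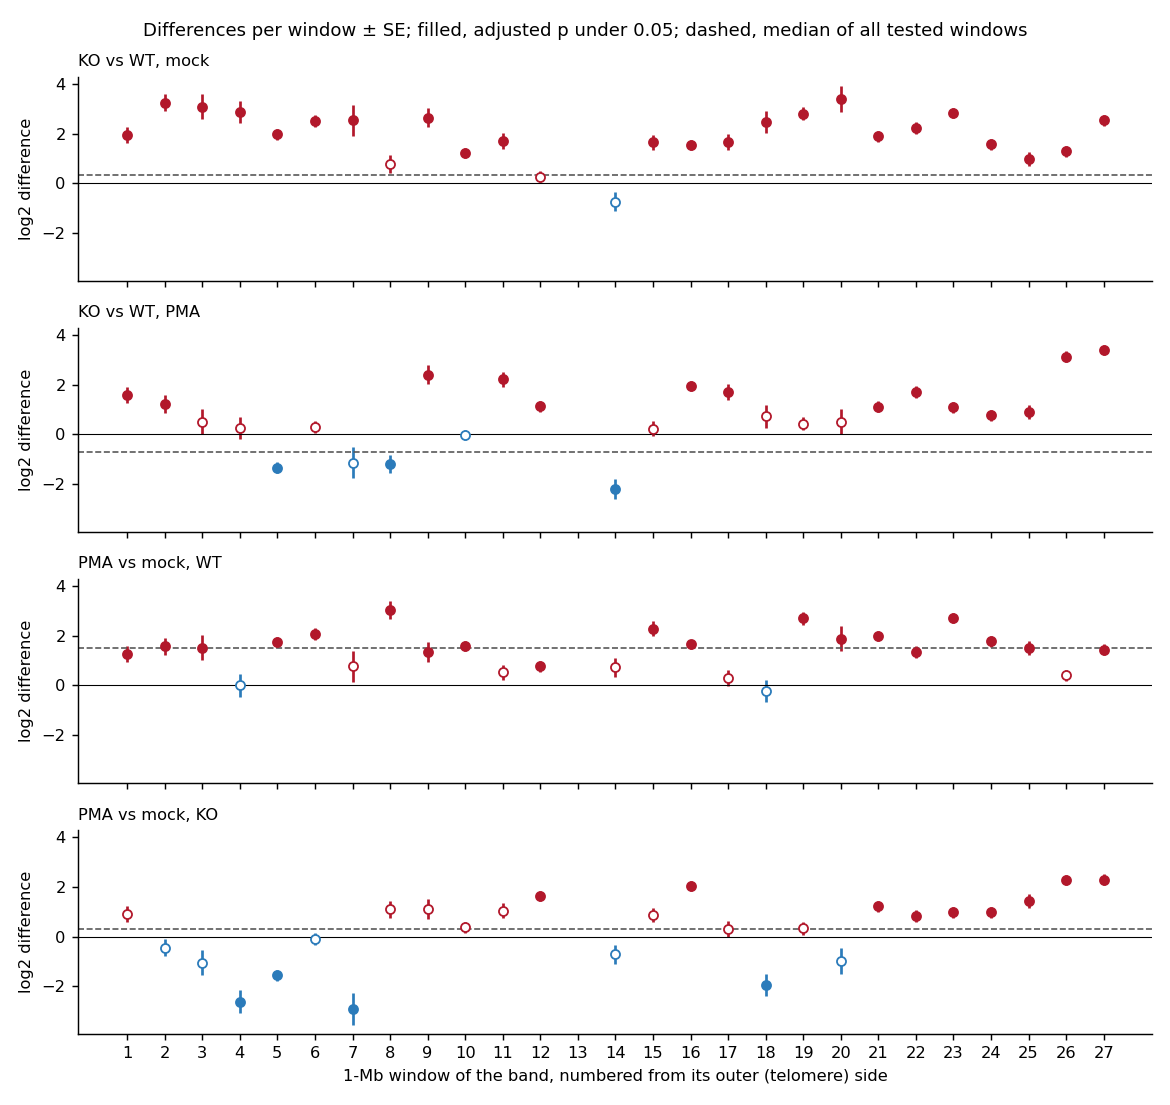
Log2 difference in covered length per 1-Mb window of the 1p36 band, with SE, for KO against WT under mock, KO against WT after PMA, PMA against mock in WT and PMA against mock in KO, from top to bottom. Filled points passed the threshold and dashed lines are medians of all tested windows: 23 windows are filled above 0 in the top panel, and the bottom panel has 9 filled above 0 and 4 below.

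In WT cells PMA raised coverage in most of the band, as in most of the genome. Of the 26 windows 19 were higher in WT PMA than in WT mock, against 65.4% of all windows. None was lower, against 1.86% of all windows, with 0 at an unadjusted p under 0.05 by limma. The median log2 difference was 1.51 in the band and 1.51 over all windows. After centring, 3 band windows were higher and 6 lower, against 8.99 and 30.7% of all windows.

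Window 8 had the largest response in WT. It held 9.25 and 5.12 kb in WT mock and 77.6 and 54.1 kb in WT PMA (log2 difference 3.05, SE 0.36, limma adjusted p = 0.0016). Window 23 held 3.14 and 2.71 kb and then 27.3 and 22.1 kb (2.71, SE 0.21, adjusted p = 0.000862), and window 19 held 6 and 5.63 kb and then 40.8 and 45.8 kb (2.7, SE 0.26, adjusted p = 0.00103). In KO cells window 8 went from 14.9 and 10.4 kb to 22.9 and 33.5 kb, below the WT PMA libraries.

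Of the 19 windows, 13 kept their call whichever of the 4 libraries was left out. The call on windows 9 and 12 ended without WT mock replicate 1 (adjusted p = 0.093 and 0.0558), WT mock replicate 2 (0.0746 and 0.0759) or WT PMA replicate 2 (0.114 and 0.0918), and that on window 12 also without WT PMA replicate 1 (0.0551). Windows 3 and 20 lost it without WT mock replicate 1 (0.0891 and 0.0541), WT PMA replicate 1 (0.0873 and 0.0547) or WT PMA replicate 2 (0.181 and 0.102). Window 1 lost it without WT mock replicate 1 (0.051) or WT PMA replicate 2 (0.094), and window 2 without WT PMA replicate 2 (0.0621).

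By 100-kb bins, 56 of 228 were higher in WT PMA, against 31.9% of all bins, and 2 were lower, against 2.32%. After centring the numbers were 22 and 22, against 13 and 9.86% of all bins. The bin chr1:8500001-8600000 held 0.5 kb in each WT mock library and 18.1 and 10.8 kb in WT PMA (log2 difference 3.33, SE 0.44, limma adjusted p = 0.00566). The bin chr1:1700001-1800000 rose from 2 and 2.5 kb to 26.6 and 27.9 kb (3.12, SE 0.17, adjusted p = 0.000779). The bins at chr1:19400001-19500000, chr1:10100001-10200000 and chr1:16200001-16300000 had means of 0.35, 0.414 and 0.75 kb in WT mock and 8.92, 8.58 and 10.9 kb in WT PMA.

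The call on the bin at 19.4 Mb ended without WT mock replicate 2 (limma adjusted p = 0.0887) or WT PMA replicate 2 (0.0787), and that at 10.1 Mb without WT PMA replicate 1 (0.0537). The lower bins were chr1:1900001-2000000, from 2 and 3.88 kb in WT mock to 0.5 and 0 kb in WT PMA, and chr1:12700001-12800000, from 1.83 and 2.66 kb to 0.5 and 0.684 kb. Both lost their call without WT mock replicate 2 (adjusted p = 0.12 and 0.0736) or WT PMA replicate 1 (0.062 and 0.0825), and the first also without WT PMA replicate 2 (0.108). When any 1 WT library was left out, fewer bins were called, both in the band and over all bins.

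In KO cells PMA moved windows of the band in both directions. Of the 26 windows 9 were higher in KO PMA than in KO mock, against 17.7% of all windows, and 4 were lower, against 5.12%. The median log2 difference was 0.85 in the band and 0.29 over all windows, and the band windows ran from -2.91 to 2.29. After centring the split was 6 higher and 5 lower, against 17.1 and 7.75% of all windows.

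The largest rises were in windows 27, 26 and 16. Window 27 went from 90.8 and 79.1 kb in KO mock to 431 and 408 kb in KO PMA (log2 difference 2.29, SE 0.21, limma adjusted p = 0.00392). Window 26 went from 40.8 and 48.9 kb to 252 and 190 kb (2.27, SE 0.21, adjusted p = 0.00392), and window 16 from 43.7 and 34.9 kb to 191 and 142 kb (2.05, SE 0.2, adjusted p = 0.00392). Both KO PMA libraries lay above both KO mock libraries in each.

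The lower windows were 7, 4, 18 and 5, all little covered. Window 7 held 13.6 and 10.5 kb in KO mock and 2 and 0 kb in KO PMA (log2 difference -2.91, SE 0.63, limma adjusted p = 0.0254). Window 4 held 8.36 and 7.6 kb in KO mock and 1.13 and 0 kb in KO PMA (-2.62, SE 0.45, adjusted p = 0.0136). Window 18 held 7.43 and 6.15 kb and then 1.5 and 0.637 kb (-1.94, SE 0.45, adjusted p = 0.0297), and window 5 held 14.2 and 17 kb and then 5.22 and 4.1 kb (-1.55, SE 0.22, adjusted p = 0.00772). These 4 windows were all among those higher in KO than in WT under mock, a comparison that shares the KO mock libraries.

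Only 4 of these 13 calls, on windows 12, 16, 26 and 27, held whichever of the 4 libraries was left out. Fewer windows were called in each of these cases, both in the band and over all windows. Window 18 lost its call without any one of them (limma adjusted p from 0.0892 to 0.129). Windows 4 and 7 lost it without KO mock replicate 1 (0.0731 and 0.127), KO mock replicate 2 (0.0692 and 0.106) or KO PMA replicate 2 (0.0543 and 0.0804), and window 5 without KO mock replicate 2 (0.0508). Windows 21 to 25 lost it without any one of the 4 (0.0513 to 0.219).

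At 100 kb PMA moved bins of KO cells in both directions over much of the band. Of the 228 bins 42 were higher in KO PMA, against 13.1% of all bins, and 40 were lower, against 5.31%. Between 26 and 28 Mb 16 of 20 tested bins were higher and 0 lower. Between 2 and 8 Mb 1 of 47 was higher and 23 were lower. Both directions occurred elsewhere, with 2 higher and 1 lower between 1 and 2 Mb, 17 and 11 between 8 and 20 Mb, and 6 and 5 between 20 and 26 Mb. The limits of these stretches were chosen after the values were seen, so the counts describe the profile. Of the 40 lower bins 37 had been higher in KO than in WT under mock, a comparison that shares the KO mock libraries, and 27 held no region in either KO PMA library.

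**Figure D4:**
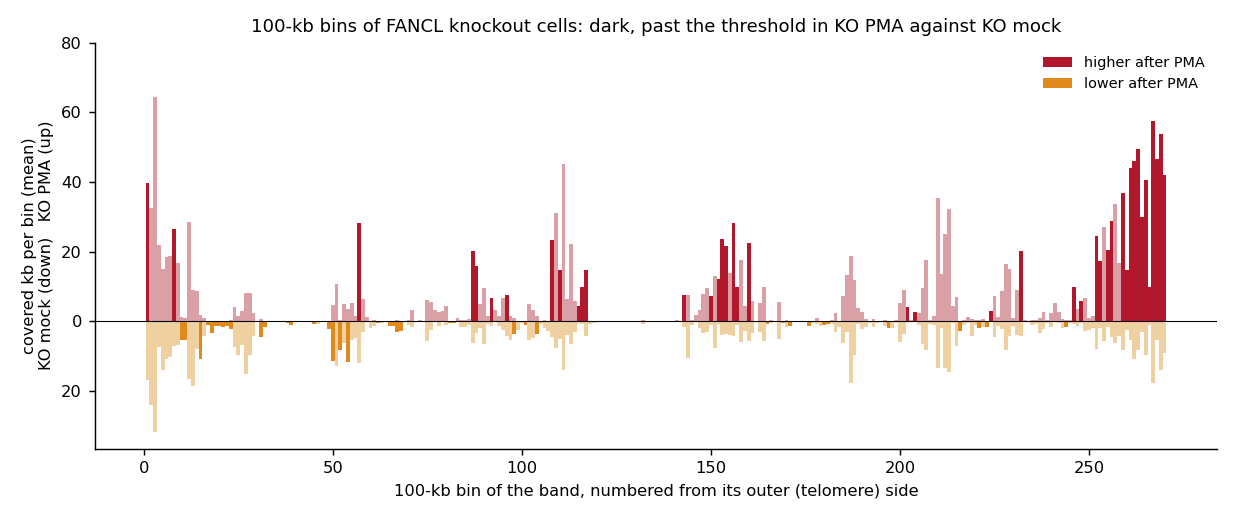
Mean covered length of each 100-kb bin of the 1p36 band, numbered from the telomere side, in KO PMA (upward, in kb) and KO mock (downward, in kb). Dark bars passed the threshold between the 2 groups: 16 of the last 20 tested bins are among the 42 higher ones, and 23 of the 40 lower bins lie between 2 and 8 Mb.

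The bin chr1:27700001-27800000 showed the pattern of the inner end. It held 0 kb in both WT mock libraries, 4.71 and 4.82 kb in WT PMA, 5.05 and 5.59 kb in KO mock, and 46.4 and 46.9 kb in KO PMA (log2 difference PMA against mock in KO 2.92, SE 0.13, limma adjusted p = 0.000981). The bins at chr1:26400001-26500000, chr1:16100001-16200000, chr1:25500001-25600000 and chr1:12500001-12600000 rose from means of 1.76, 0.75, 0.75 and 0.75 kb in KO mock to 20.5, 12, 9.97 and 9.88 kb in KO PMA. The call on the bin at 26.4 Mb ended without any one of the 4 KO libraries (adjusted p from 0.0649 to 0.0948), and that at 12.5 Mb without KO mock replicate 2 (0.0636) or KO PMA replicate 1 (0.062).

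Among the lower bins, chr1:6100001-6200000 held 8.22 and 8.26 kb in KO mock and 0.5 and 0 kb in KO PMA (log2 difference -2.92, SE 0.53, limma adjusted p = 0.0205). The bins at chr1:2400001-2500000, chr1:22500001-22600000, chr1:7700001-7800000 and chr1:4000001-4100000 went from means of 10.7, 2.9, 2.77 and 4.39 kb to 1.9, 0, 0 and 0.565 kb. Each of these 5 calls ended without KO mock replicate 2 (adjusted p from 0.0684 to 0.139). KO mock replicate 1 ended those at 6.1, 2.4 and 4 Mb (0.0964, 0.0579 and 0.123), KO PMA replicate 1 those at 6.1, 22.5 and 7.7 Mb (0.0798, 0.0955 and 0.105), and KO PMA replicate 2 those at 6.1, 22.5, 7.7 and 4 Mb (0.0965, 0.0812, 0.0889 and 0.0793). When any 1 KO library was left out, fewer bins were called, both in the band and over all bins.

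The response to PMA itself differed between the genotypes in 13 of the 26 tested windows. The interaction, the log2 response of KO minus that of WT, was lower in 12 of 26 windows, against 27.8% of all windows, and higher in 1, against 2.07%. Its median was -1.32 in the band and -1.09 over all windows. After centring 10 windows were higher and 1 was lower, against 26 and 2.64% of all windows, so the direction of the count depended on scaling. Window 26 was the single higher one before centring (1.86, SE 0.3, limma adjusted p = 0.0138): PMA changed it by 0.41 in WT and by 2.27 in KO.

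The lowest interactions were in windows 7, 5 and 20. They were -3.68 (SE 0.89, limma adjusted p = 0.0301), -3.3 (SE 0.32, adjusted p = 0.00916) and -2.87 (SE 0.72, adjusted p = 0.0325). In window 5 PMA changed coverage by 1.75 in WT and by -1.55 in KO, and both differences passed the threshold. Fewer interactions than these were called in the band whichever library was left out. Over all windows the called share also fell, except without WT mock replicate 1. By 100-kb bins 9 were higher, against 3.77% of all bins, and 34 lower, against 12.6%, led by chr1:12500001-12600000 (2.97, SE 0.54, adjusted p = 0.0247) and chr1:15300001-15400000 (-3.08, SE 0.43, adjusted p = 0.0114). After centring 24 were higher and 3 lower, against 8.51 and 2.02% of all bins.

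Without 1 of the 8 libraries, the interaction calls on windows 5 and 26 and on the bin at 15.3 Mb held in every case. The call on window 7 held only without KO PMA replicate 1 and otherwise ended (limma adjusted p from 0.0637 to 0.0972), and that on window 20 ended without any one of the WT PMA, KO mock and KO PMA libraries (0.0773 to 0.109). The call on the bin at 12.5 Mb held only without WT mock replicate 2 or KO PMA replicate 2 (0.055 to 0.0787 without the other 6). Fewer interaction bins were called in the band in every case. Over all bins the higher share also fell in every case, and the lower share in all but the case without WT PMA replicate 2.

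Regions of the band recurred between replicates more often in the groups with more coverage. A region counted as reproducible when a region of the other library of its group shared at least 1 bp with it. In WT mock 10.9 and 9.48% of the regions of replicates 1 and 2 were reproducible, with exact Clopper-Pearson 95% intervals of 7.92 to 14.6% and 6.86 to 12.7%. The values were 31.9 and 30% in WT PMA (intervals 29 to 34.9% and 27.2 to 32.9%) and 33.9 and 33% in KO mock (31.3 to 36.6% and 30.5 to 35.7%). They were 48.2 and 56.5% in KO PMA (45.9 to 50.4% and 54.2 to 58.8%). The intervals cover counting error only.

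The reproducible share of the band stood below that of the other chromosomes in WT mock and above it in KO cells. On the rest of chromosomes 1 to 22 and X 17.7 and 21.4% of WT mock regions were reproducible, above the band's values. In KO mock the rest stood at 29.1 and 29.5% and in KO PMA at 38.2 and 45.9%, below the band's value for the same replicate. In WT PMA it stood at 26.4 and 31.5%, below the band in replicate 1 and above it in replicate 2. On the rest of chromosome 1 alone the WT mock values were 11.3 and 16.1%, compared with 10.9 and 9.48% in the band. With 2 libraries per group there is 1 pair, so no test over samples was made of these differences.

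Reproducibility varied along the band. Among windows with at least 10 regions in both libraries of a group, window 27 had the highest pooled share in KO PMA (74.6%) and in WT mock (24%), window 1 in KO mock (51.1%) and window 5 in WT PMA (61.8%). In window 27 the mean width was 554 bp in WT mock, 645 bp in WT PMA, 838 bp in KO mock and 1761 bp in KO PMA. In window 1 it was 625, 844, 837 and 1348 bp in the same order. Of the 21 windows with a mean width in all 4 groups, WT mock had the narrowest regions in 21 and KO PMA the widest in 17, and WT PMA had the widest in the other 4. A wider region is more likely to share a base with another, and so is any region where the other list covers more of the window. Window 27 held 431 and 408 kb in KO PMA but 14.3 and 13.4 kb in WT mock. The parts of width and coverage in the reproducible share were not tested.

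**Figure D5:**
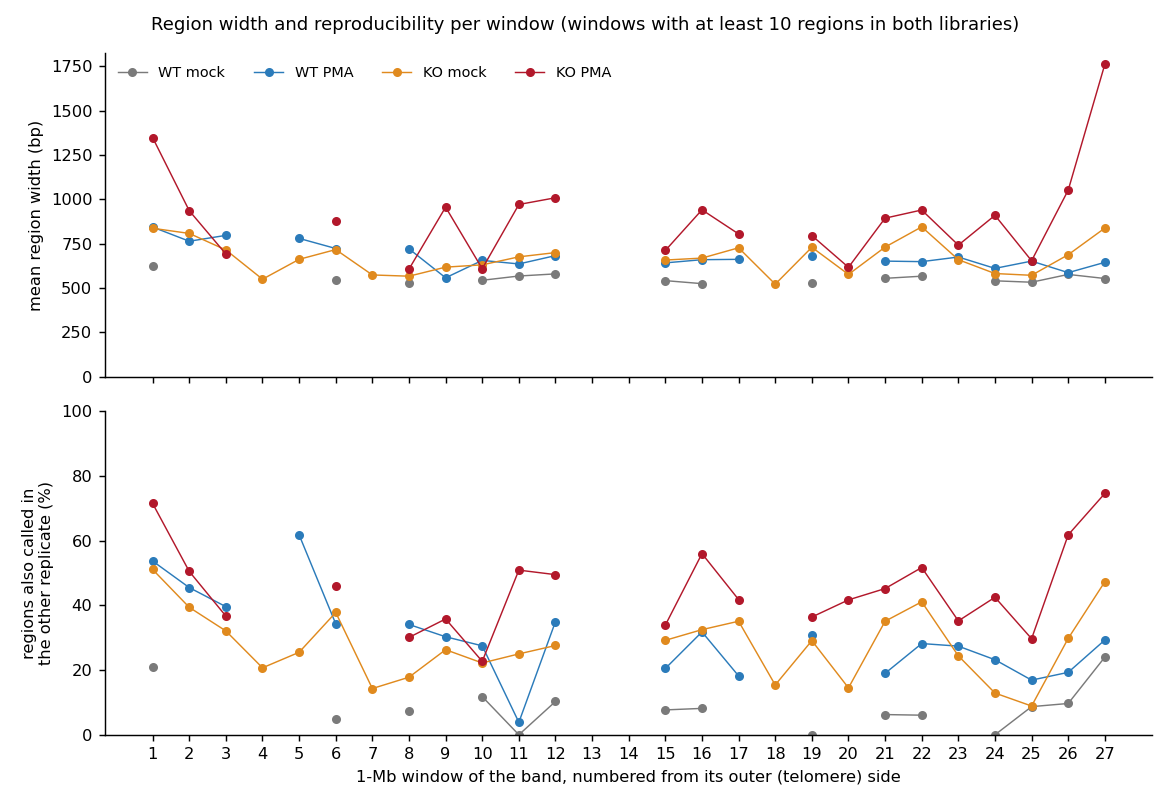
Mean region width in bp (top) and the percentage of regions also called in the other replicate (bottom) per 1-Mb window of the 1p36 band, numbered from the telomere side, for windows with at least 10 regions in both libraries. Colours are the 4 groups: KO PMA reaches 1761 bp and 74.6% in window 27, and WT mock stays lowest in width.

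Merging the 8 lists gave 4493 separate loci in the band, of which 58% were called in a single library, against 68% on the rest of chromosomes 1 to 22 and X. Loci called in all 4 KO libraries and in no WT library numbered 61 (1.36% of the band's loci, against 1.08% elsewhere). Loci called in all 4 WT libraries and in no KO library numbered 1 (0.0223%, against 0.157%). The 61 lay in 18 windows, 9 of them in window 1 and 9 in window 27, and their merged width ran from 628 to 8411 bp with a median of 2319 bp. Under mock, 296 loci were called in both KO libraries and neither WT library, or 6.59% of the band's loci, against 3.64% elsewhere. The other way round there were 23, or 0.512%, against 1.05% elsewhere.

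The band had 11 loci called in all 8 libraries, 0.245% of its loci, against 0.197% elsewhere. Of these, 6 lay in window 1 and 2 in window 26. The widest merged loci were chr1:1254138-1284129, chr1:27164445-27185751 and chr1:1016478-1034083. They spanned 29991, 21306 and 17605 bp, and their width is that of the union of all 8 libraries.

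Single regions with the highest fold in both replicates were mostly 500 bp wide. In KO PMA a region at chr1:17742520-17743020 stood at 16.29-fold over input and its partner at 20.92-fold, and one at chr1:8571497-8571997 at 15.27-fold with a partner at 19.76-fold. In KO mock those at chr1:11825051-11825969 and chr1:1722853-1723485 stood at 10.43- and 12-fold, with partners at 9.13- and 8.34-fold. In WT PMA those at chr1:5951551-5952051 and chr1:19512546-19513046 stood at 13.68- and 15.73-fold, with partners at 16.43- and 13.15-fold. In WT mock those at chr1:12473928-12474553 and chr1:27175654-27176154 stood at 8.15- and 6.99-fold, with partners at 13.52- and 14.31-fold.

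The longest regions showed another pattern, with low fold and great width. The longest of the band, chr1:27901911-27925318 in KO PMA replicate 2, spanned 23407 bp at 3.23-fold over input, and 20086 bp of it were also called in replicate 1. The longest region of WT mock spanned 2213 bp at chr1:1030219-1032432 in replicate 1, of which 1646 bp were also called in replicate 2. The longest of WT PMA, chr1:12405075-12410060 in replicate 1, spanned 4985 bp and shared none with a region of replicate 2. In KO mock the longest was chr1:2228314-2233880 in replicate 2, with 5566 bp, of which 2267 bp were called in replicate 1.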

How the data were processed

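γH2AX ChIP-seq was measured in 8 libraries of 4 groups, with 1 WT mock input. The titles of the samples gave each group and replicate number. The build was hg19 and the tools were CASAVA 1.4, BWA and HOMER, per the submitters' processing notes. HOMER called each library on its own with the WT mock input as control and joined enriched 500-bp stretches, per the file headers.

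The deposited signal is each region's tag number, which the authors scaled to a library of 10 M tags, together with the input tags there. In some lists the authors also deposited the raw tag count, and in others the tags scaled to the input. The deposited fold is the authors' ratio to input, and the deposited score and p-value are HOMER's per region. Read-level data were not used, so a stretch outside a region counts as 0 whether its signal was absent or just below that library's threshold.

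Covered length was summed per 1-Mb window and 100-kb bin, each region counted at its midpoint. Windows and bins covered in at least 2 libraries on chromosomes 1 to 22 and X (1935 and 9531) entered 1 fit per size with 4 groups and no replicate block, by limma (version 3.58.1, with its trend option, R 4.3.3) on log2(covered bp + 1000). Benjamini-Hochberg adjustment ran over all windows or all bins, and the threshold was 0.05. The fold is understated where coverage is low. Band totals were compared by two-sided exact permutation tests with scipy 1.17.1 (Python 3.11.15, pandas 2.3.3, numpy 2.4.6). The fit was tested on simulated data, where false calls were somewhat more frequent than the threshold allows. Where each simulated bin kept its own measured spread they were well above it, so the adjusted p of bins may be too small.

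The band, windows, bins and lists were chosen with earlier results of these data known. The text names the 3 windows with the largest differences in each direction per comparison and the 5 bins (for the interaction, the first in each direction), at most 1 bin per Mb. In each group it names the 2 reproducible regions with the highest lower fold and the longest region. Genes of the band were to be placed on named bins, which was not done because no hg19 annotation was used here. Alternatives were other filters on fold, tags, width and number of regions, other pseudocounts and coverage minimums, shifted or clipped windows, median centring, tags in place of length, a replicate block and leaving out each library.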

Additional observations from a re-analysis of the deposited data

Results flagged for a closer look

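The response to PMA differed between KO and WT cells in 13 of the 26 tested windows of the 1p36 band, by the interaction term of the limma fit over all windows. Over all windows 27.8% were lower and 2.07% higher. The response was lower in KO in window 2 (log2 -2.02), window 3 (-2.58), window 4 (-2.62), window 5 (-3.30), window 6 (-2.18), window 7 (-3.68) and window 8 (-1.96), a run of 7 neighbouring windows. It was also lower in window 10 (-1.23), window 15 (-1.42), window 19 (-2.36), window 20 (-2.87) and window 23 (-1.74). It was higher in KO in window 26 (1.86). Neighbouring windows are not independent. The median interaction over all windows was -1.09. With each library centred on its own median it was 0.63, and 10 windows of the band were higher and 1 was lower.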

How the results depend on the processing

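Every comparison of covered length and of share between KO and WT in the band kept its sign under all alternatives run, but the sizes moved. The log2 difference in share ran from 0.81 to 1.30 when 1 library was left out, was 0.59 under mock and 0.56 after PMA with regions that reached 6-fold, and was 3.15 and 1.34 with regions of at least 1000 bp. The difference in covered length fell to 0.88 under mock and 0.05 after PMA with regions of at least 6-fold, where the PMA libraries of both genotypes overlapped. Of 233 values of main results under alternatives other than leaving out a library, 193 were counted as kept. A count was kept when its total over both directions lay within 1.5 times, and a band difference when its sign did not turn. The p-value of a band difference did not enter. Splits could turn within a kept total: the interaction had 1 higher and 12 lower windows, but 10 and 1 after centring. Median widths with a main difference of 0.00 (KO against WT under mock, PMA in WT) were kept whatever their value. The share of the band after PMA has no stable sign. In WT it was 0.21 with one tag density threshold, 0.16 with one total tag threshold, 0.13 with the same number of regions per library, 1.84 with regions of at least 1000 bp, and from -0.23 to 0.21 without 1 library (0.21 without WT mock replicate 2 and 0.20 without WT PMA replicate 1). In KO it was 0.07 with the same number of regions and 0.03 with regions of at least 1000 bp. Over both genotypes it was 0.10, 0.05, 0.10 and 0.93 in the order given for WT, and from -0.15 to 0.06 without 1 library. The cause was not tested.

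Keeping regions of at least 6-fold over input left few regions and few calls: 3 windows for KO against WT under mock, 2 after PMA, 6 for PMA in WT, 1 for PMA in KO and 0 interactions (limma), and 4, 6, 6, 10 and 7 bins in that order. Over all windows 7.71, 7.71, 45.4, 1.91 and 0.675% were then higher and 2.93, 31.3, 1.07, 0.732 and 9.96% lower, in the same order. Over all bins 2.13, 4.91, 14.2, 3.13 and 2.57% were higher and 1.3, 12, 1.47, 1.96 and 7.41% lower. Of the 67 named windows and bins, counted per comparison, 53 lost their call there and 7 kept it. In 3 bins the sign turned at a difference near 0, and the others had no value in that setting. Those reversed were chr1:27800001-27900000 for KO against WT under mock (-0.00), chr1:12400001-12500000 for KO against WT after PMA (0.04) and chr1:27700001-27800000 for PMA in KO (-0.04). The same number of regions per library gave 15 windows for KO against WT under mock, 4 for PMA in WT, 6 for PMA in KO and 4 interactions, and 40, 45, 16, 33 and 18 bins. Over all windows 16, 12, 5.62 and 5.21% were then higher and 17.9, 5.89, 5.62 and 7.92% lower. Over all bins 11.3, 13.9, 8.1, 4.92 and 7.34% were higher and 10.6, 15, 7.32, 4.31 and 6.56% lower. Regions of at least 1000 bp gave 8 interaction windows and 30, 23 and 48 bins for KO against WT under mock, PMA in WT and PMA in KO. Over all windows 10.9% were then higher and 29.3% lower. Over all bins 16.5, 30.4 and 31.4% were higher and 2.82, 2.28 and 2.86% lower. One tag density threshold gave 8 interaction windows (over all windows 1.14% higher and 19% lower) and 30 bins for PMA in WT (over all bins 17.4 and 1.22%). A pseudocount of 100 bp gave 7 interaction windows (over all windows 1.34% higher and 19.7% lower) and 50 bins for PMA in KO (over all bins 7.58 and 4.71%). Interaction bins numbered 25 where at least 4 libraries had to be covered, and over all bins 3% were then higher and 8.26% lower. Centring on the median gave 9 windows for PMA in WT and 27 interaction bins, and turned window 8 for KO against WT after PMA (0.05). Without 1 library, windows called ran from 18 to 21, 12 to 14, 13 to 17, 4 to 7 and 4 to 10, and bins from 49 to 66, 44 to 61, 28 to 41, 26 to 43 and 25 to 35, each in the order given for 6-fold regions.

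Same-numbered libraries of different groups deviated together with correlations from -0.08 to 0.26, so the numbers were not taken as pairs. With the replicate number as a replicate block, 22, 17, 19, 12 and 14 windows and 88, 67, 49, 71 and 30 bins were called, in the order given for 6-fold regions. Over all windows 29, 16.5, 65.9, 17.4 and 2.27% were higher and 6.61, 40.5, 1.65, 5.06 and 29.4% lower. Over all bins 15.1, 14.9, 30.4, 11.3 and 2.57% were higher and 3.22, 20.8, 2.19, 4.54 and 9.02% lower. The depth of a library sets its tag threshold, and weak stretches just below it count as uncovered.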
